A study of Mus musculus with 6 samples.

Results

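The genes described here are the ligands and receptors of the VEGF and angiopoietin systems, measured by RNA-seq in cultured muscle satellite cells with and without Hira. They are 10 of the 55536 genes counted, found by their gene symbols in the GENCODE M21 annotation. The list was drawn up with earlier results of these data known. It holds 5 ligands (Vegfa, Vegfb, Vegfc, Angpt1 and Angpt2), 3 receptors (Flt1, Kdr and Flt4) and 2 co-receptors (Nrp1 and Nrp2). The series compared 3 control with 3 cKO samples, to ask how the transcriptome of activated satellite cells changes when the histone chaperone HIRA is lost. Mice were adult males of 8 to 12 weeks on a C57BL/6J background, the control being Pax7CreErt2;Hira fl/+ by the study's methods (WT in the labels) and the cKO Pax7CreErt2;Hira fl/fl. Both groups carried the Cre, a tamoxifen-inducible recombinase driven by Pax7, the satellite cell transcription factor, and both received tamoxifen in the diet for 2 weeks followed by 1 week of regular food and a BaCl2 injury of the tibialis anterior muscle. Satellite cells were sorted 5 days after injury as CD34+ and ITGA7+ cells negative for CD45, TER119 and SCA1, and were then grown for 48 h at low density in high-serum medium containing bFGF. The controls therefore lacked 1 Hira allele in the cells where the Cre had acted, and nothing in the sources used here says whether each RNA sample came from a different mouse, so the p-values measure the spread between these samples, which may in part be technical.

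VEGF ligands bind receptor tyrosine kinases on endothelial cells: VEGFA signals mainly through KDR (VEGFR2), FLT1 (VEGFR1) binds VEGFA tightly with weak kinase activity and also exists as a soluble form that traps the ligand, and VEGFC acts on FLT4 (VEGFR3), the lymphatic receptor. The neuropilins are co-receptors that bind VEGF ligands and, independently of these, class 3 semaphorins. The angiopoietins bind the receptor TEK (TIE2), with ANGPT1 as its agonist and ANGPT2 as a context-dependent antagonist. In muscle, myogenic cells are a source of VEGFA and lie close to capillaries, whereas KDR, FLT1 and FLT4 are known chiefly as genes of endothelial cells, FLT1 being also used by monocytes and macrophages.

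The libraries held 47944477 to 63323577 counts each. Of 22404 genes that passed the filter on low counts, 2101 were called higher and 1448 lower in cKO by edgeR's quasi-likelihood test with p adjusted by Benjamini-Hochberg and called under 0.05, the threshold used throughout. All 10 members had at least 10 counts in every sample and all 10 passed the filter. Hira itself had 375, 348 and 341 counts in control replicates 1 to 3 and 161, 293 and 272 in cKO replicates 1 to 3, a log2 fold change of -0.43 (SE, the standard error, 0.12, adjusted p = 0.024 from edgeR). Without control replicate 1 it was -0.34 (adjusted p = 0.10 from edgeR), and without cKO replicate 1, the lowest of the 6 samples, it was -0.29 (adjusted p = 0.046 from edgeR). The exons removed by the Cre were not analysed apart from the rest of the gene, and 44.7% of Hira exon bases are shared with Gm28539 on the same strand. The myogenic markers checked the labelled cell type: their summed level was 9620 to 9759 CPM (counts per 1000000 counted reads) in control and 8509 to 9084 CPM in cKO, with Pax7, Myod1 and Myog all counted, and 9 of 10 were called lower in cKO. In bulk samples such as these, fewer cells of a type and less RNA per cell cannot be told apart.

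The sequence just upstream of 3 receptor and co-receptor genes is shown beside that of Vegfa, the most abundant ligand. Each line gives the bases before the RefSeq transcription start of the gene, 5′ to 3′ on the gene's own strand (GRCm38.p6, the mm10 build), up to the first base that GENCODE M21 places in an exon. Capitals mark the GC box, GGGCGG on either strand, overlapping matches included; it is the motif bound by SP-family factors. The windows are Flt1 at chr5:147726012-147726261 on the minus strand, Kdr at chr5:75978459-75978705 on the minus strand, Nrp2 at chr1:62703067-62703284 on the plus strand and Vegfa at chr17:46032378-46032627 on the minus strand.
Flt1: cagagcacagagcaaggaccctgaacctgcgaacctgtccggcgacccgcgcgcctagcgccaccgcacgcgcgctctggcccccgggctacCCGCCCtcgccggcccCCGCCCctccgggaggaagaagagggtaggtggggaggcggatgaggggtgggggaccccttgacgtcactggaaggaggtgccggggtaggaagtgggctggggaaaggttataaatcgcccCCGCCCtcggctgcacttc
Kdr: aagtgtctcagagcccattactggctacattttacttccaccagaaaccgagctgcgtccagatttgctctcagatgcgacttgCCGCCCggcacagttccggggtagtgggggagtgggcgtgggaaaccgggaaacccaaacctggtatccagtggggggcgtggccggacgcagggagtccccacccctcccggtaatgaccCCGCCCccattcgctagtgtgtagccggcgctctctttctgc
Nrp2: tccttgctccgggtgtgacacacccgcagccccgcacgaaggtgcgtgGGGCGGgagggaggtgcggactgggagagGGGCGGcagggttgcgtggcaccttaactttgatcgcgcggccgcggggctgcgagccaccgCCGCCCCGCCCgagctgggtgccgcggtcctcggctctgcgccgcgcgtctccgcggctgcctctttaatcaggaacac
Vegfa: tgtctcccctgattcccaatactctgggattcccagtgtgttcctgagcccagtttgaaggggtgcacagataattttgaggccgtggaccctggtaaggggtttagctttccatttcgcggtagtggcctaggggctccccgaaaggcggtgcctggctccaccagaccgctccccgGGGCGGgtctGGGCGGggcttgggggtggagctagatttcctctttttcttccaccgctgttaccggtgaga
In the bases printed the GC box was found 3 times for Flt1, 2 times for Kdr, 4 times for Nrp2 and 2 times for Vegfa. Windows of 250 bases were found in RefSeq for 8 of the 10 genes, 9 windows in all since Vegfa has more than 1 start, and all 9 held the motif, against 32.7% of 32851 windows of that length over all genes. The windows shown were GC-rich, at 70.4% for Flt1, 61.6% for Kdr, 72.4% for Nrp2 and 59.2% for Vegfa over the full 250 bases, against a median of 52.4% for all windows. The 9 windows with the motif included those of Vegfb and Vegfc, genes that were not called. The match describes the letters only, and a link to expression was not tested. All 250 bases of the Flt4 window and 218 of those of the second Vegfa window lay in exons. The hypoxia response core ACGTG, searched on both strands, was in 1 of the 9 windows (a second Vegfa start) against 16.6% of all windows.

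The VEGF receptors and neuropilins listed here were higher in cKO as a class, while the ligands were split. The angiopoietin receptor gene Tek and its partner Tie1 are not among the 10 genes and were not called (values below). All 5 receptor and co-receptor genes were called higher in cKO, with log2 fold changes from 0.16 to 1.22 and a median of 0.78. Of the 5 ligands, 2 were called higher (Angpt2 and Vegfa), 1 lower (Angpt1) and 2 were not called (Vegfb and Vegfc), with a median of -0.04. Over all genes tested the median log2 fold change was -0.0011, with 9.38% called higher and 6.46% called lower. Since the 10 genes were chosen with earlier results of these data known, these shares are given for scale and not as a test. In total 7 of the 10 genes were called higher and 1 lower, and for the same 7 every cKO sample lay above every control sample in CPM, as was so for 20.3% of all genes tested. Angpt1 had all of its cKO samples below all of its controls, as for 11.1% of all genes tested. The receptor count was 5 of 5 under each of the 11 alternative fits, while the count of members called higher was 6 or 7 because the call for Vegfa was lost in 4 of them.

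**Figure D1:**
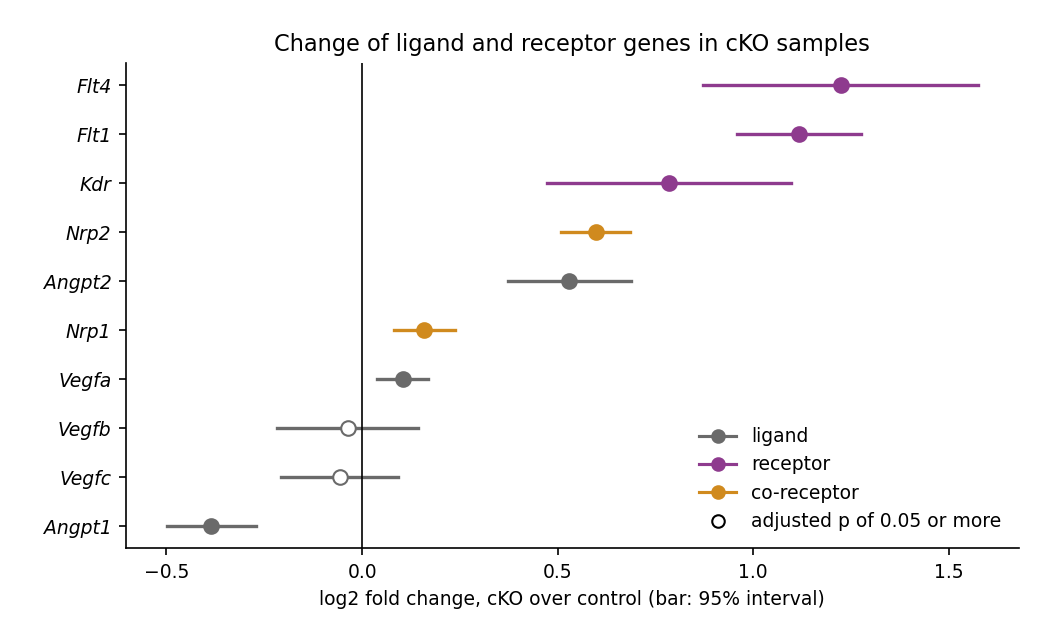
Log2 fold change of each of the 10 genes, cKO over control, from edgeR (x axis), with bars for the 95% interval derived from the test and n = 3 samples a group. Receptors (purple) and co-receptors (orange) lie to the right of 0, from 0.16 for Nrp1 to 1.22 for Flt4, while ligands (grey) run from -0.39 for Angpt1 to 0.53 for Angpt2, with Vegfb and Vegfc (open circles) not called.

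Flt1 (ENSMUSG00000029648, minus strand of chromosome 5, 147561604 to 147726011) had 353, 348 and 311 counts in control replicates 1 to 3 and 586, 755 and 670 in cKO replicates 1 to 3. Scaled to library size these were 6.24, 5.50 and 5.06 CPM in control and 12.2, 12.8 and 12.001 CPM in cKO. The lowest cKO sample was far above the highest control sample, and the cKO samples differed little among themselves. The log2 fold change was 1.12 (SE 0.07, 95% interval 0.96 to 1.28, adjusted p = 5.6e-08 from edgeR), and 12.5% of the genes called higher had a larger one. The counts cover the whole gene and do not separate the membrane receptor from its soluble form.

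Kdr (ENSMUSG00000062960, minus strand of chromosome 5, 75932827 to 75978458) was counted at lower depth, with 58, 63 and 60 reads in control against 78, 117 and 91 in cKO. Its levels were 1.03, 0.995 and 0.977 CPM in control and 1.63, 1.98 and 1.63 CPM in cKO. The groups were apart, with cKO replicate 2 the highest sample and the other two cKO samples almost equal. The log2 fold change was 0.78 (SE 0.15, 95% interval 0.47 to 1.10, adjusted p = 0.0015 from edgeR), and at this depth counting error alone gives a coefficient of variation of 12.9% per control sample.

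Flt4 (ENSMUSG00000020357, plus strand of chromosome 11, 49609263 to 49652739) had 59, 50 and 67 counts in control against 99, 163 and 116 in cKO. In CPM it stood at 1.04, 0.790 and 1.09 in control but at 2.07, 2.76 and 2.08 in cKO. Once more the lowest cKO sample was above the highest control sample and replicate 2 led the cKO group. It had the largest log2 fold change of the 10 genes, 1.22 (SE 0.16, 95% interval 0.87 to 1.57, adjusted p = 8.9e-05 from edgeR), although its interval overlaps those of Flt1 and Kdr. Without cKO replicate 2 the values were 1.07 for Flt4, 1.09 for Flt1 and 0.68 for Kdr, all 3 still called.

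Nrp2 (ENSMUSG00000025969, plus strand of chromosome 1, 62703285 to 62818695), the neuropilin associated with VEGFC and lymphatic vessels, had 2044, 2292 and 2229 counts in control against 2539, 3511 and 3057 in cKO. It was nearly constant among control samples, at 36.1, 36.2 and 36.3 CPM, and reached 53.0, 59.4 and 54.8 CPM in cKO. The gap between the groups was wider than the range inside either one. Nrp2 had a log2 fold change of 0.60 (SE 0.04, 95% interval 0.51 to 0.69, adjusted p = 9.1e-08 from edgeR).

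Nrp1 (ENSMUSG00000025810, plus strand of chromosome 8, 128358604 to 128503363), the neuropilin that pairs with KDR, was the more abundant of the pair, with 3242, 3703 and 3606 counts in control against 3101, 4122 and 3565 in cKO. This was 57.3, 58.5 and 58.7 CPM in control against 64.7, 69.7 and 63.9 CPM in cKO. The groups did not overlap but stood close together. Its log2 fold change was 0.16 (SE 0.04, 95% interval 0.08 to 0.24, adjusted p = 0.0075 from edgeR), so the intervals of the 2 neuropilin genes do not meet. A microRNA gene, Mir1903, overlaps 0.818% of Nrp1 exon bases on the same strand.

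Vegfa (ENSMUSG00000023951, minus strand of chromosome 17, 46016993 to 46032369) was the most abundant of the 10, with 11394, 12823 and 12862 counts in control against 10800, 13314 and 12278 in cKO. Its levels were 201, 202 and 209 CPM in control and 225, 225 and 220 CPM in cKO. The cKO samples were all higher, by a margin not much wider than the control range. The log2 fold change was 0.10 (SE 0.03, 95% interval 0.04 to 0.17, adjusted p = 0.028 from edgeR), a 1.07-fold difference after TMM scaling. The call was lost without control replicate 1 (adjusted p = 0.13), without control replicate 2 (adjusted p = 0.15) and without cKO replicate 3 (adjusted p = 0.063, all from edgeR), and with the replicate number as a block (adjusted p = 0.056 from edgeR).

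The other VEGF ligands did not pass the test. Vegfb (ENSMUSG00000024962, minus strand of chromosome 19, 6982473 to 6987651), which binds FLT1 and is linked to fatty acid handling in muscle, had 384, 437 and 418 counts in control against 374, 381 and 345 in cKO. Its CPM values were 6.79, 6.90 and 6.81 in control against 7.80, 6.44 and 6.18 in cKO. The cKO samples fell on both sides of the tightly grouped controls, and the log2 fold change was -0.04 (95% interval -0.22 to 0.14, adjusted p = 0.84 from edgeR). Vegfc (ENSMUSG00000031520, plus strand of chromosome 8, 54077606 to 54187096), the FLT4 ligand, had 568, 669 and 599 counts in control against 495, 532 and 582 in cKO. At 10.04, 10.6 and 9.76 CPM in control and 10.3, 8.99 and 10.4 CPM in cKO, its groups overlapped too. Its log2 fold change was -0.06 (95% interval -0.21 to 0.09, adjusted p = 0.68 from edgeR). The intervals exclude a change of either ligand as large as that of Nrp2 or of any receptor.

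The angiopoietins moved in opposite directions. Angpt2 (ENSMUSG00000031465, minus strand of chromosome 8, 18690263 to 18741562) had 355, 419 and 394 counts in control against 407, 603 and 537 in cKO, or 6.28, 6.62 and 6.42 CPM against 8.49, 10.2 and 9.62 CPM. Every cKO sample was higher, replicate 1 the least so. Its log2 fold change was 0.53 (SE 0.07, 95% interval 0.37 to 0.69, adjusted p = 0.00012 from edgeR). The study had itself named Angpt2 as a gene of another lineage that is higher without Hira, so its direction is not independent of that choice.

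Angpt1 (ENSMUSG00000022309, minus strand of chromosome 15, 42424723 to 42676977) had 872, 1061 and 964 counts in control against 583, 753 and 691 in cKO, which is 15.4, 16.8 and 15.7 CPM against 12.2, 12.7 and 12.4 CPM. It was the member that fell, with its groups apart and a narrow spread in both groups. The log2 fold change was -0.39 (SE 0.05, 95% interval -0.50 to -0.27, adjusted p = 0.00012 from edgeR). Of its exon bases, 14.2% overlap Gm17473 on the other strand, and the sources used here do not say whether counting used strand.

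**Figure D2:**
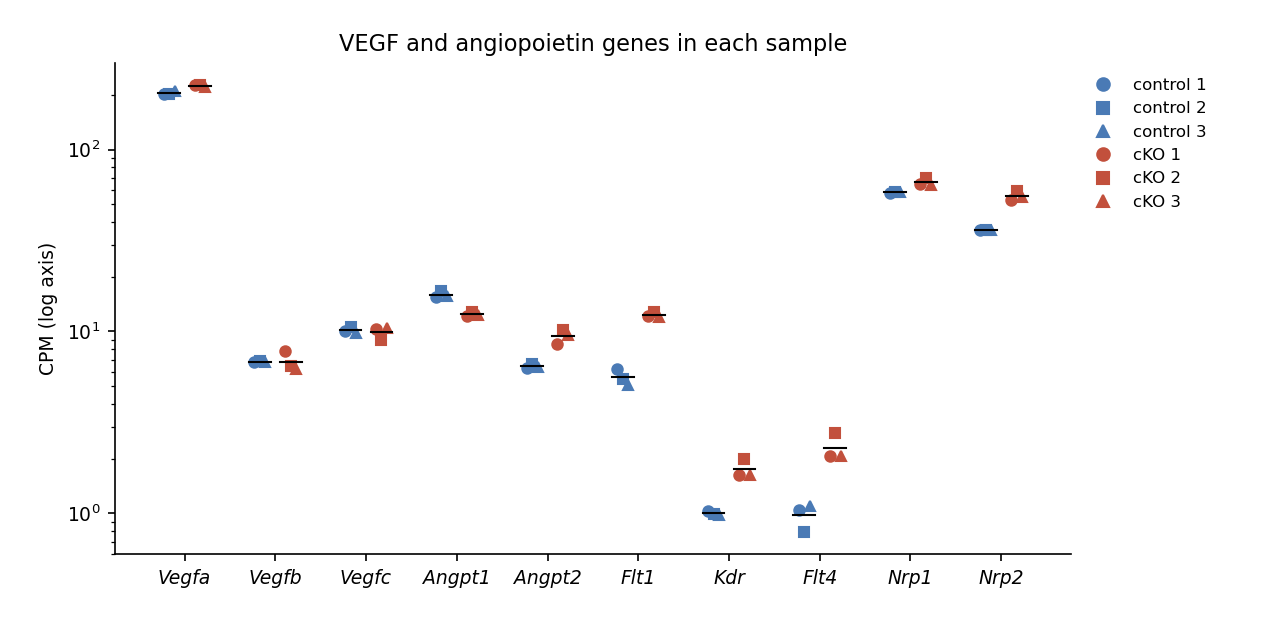
Level of each of the 10 genes in each sample, in CPM on a log axis, with controls in blue, cKO in red, a different marker shape for each replicate and a line at each group mean (n = 3). The samples run from 201 to 225 CPM for Vegfa and from 0.790 to 2.76 CPM for the receptors Kdr and Flt4, and the groups are apart for all but Vegfb and Vegfc.

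Levels of different genes can be compared only per length, here as RPKM (CPM per kilobase of merged exon length). On that scale the ligands and neuropilins stood above the 3 kinase receptors in both groups. In control Vegfa led at 47.7 ± 1.02 RPKM (SD, n = 3 here and for the levels that follow), before Nrp1 at 5.95 ± 0.0763, Vegfb at 4.26 ± 0.0370, Vegfc at 4.13 ± 0.167, Angpt1 at 3.07 ± 0.135, Nrp2 at 3.06 ± 0.00688 and Angpt2 at 1.74 ± 0.0462 RPKM. Flt1 followed at 0.415 ± 0.0441, then Flt4 at 0.118 ± 0.0197 and Kdr at 0.111 ± 0.00271 RPKM. The sample ranges of Vegfb and Vegfc, of Angpt1 and Nrp2, and of Flt4 and Kdr overlapped, so the order within these pairs is not settled.

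In cKO the order at the top and the bottom was kept and the middle changed. Vegfa was at 52.1 ± 0.709 and Nrp1 at 6.75 ± 0.323 RPKM, and Nrp2 now came next at 4.70 ± 0.279 RPKM, with a range that overlapped that of Vegfb at 4.24 ± 0.542. Vegfc was at 4.05 ± 0.326, its range overlapping that of Vegfb, and Angpt2 at 2.56 ± 0.235 RPKM had drawn level with Angpt1 at 2.39 ± 0.0553, their ranges overlapping. The receptors stayed lowest, Flt1 at 0.913 ± 0.0291, Flt4 at 0.279 ± 0.0480 and Kdr at 0.193 ± 0.0224 RPKM, with no overlap among the 3.

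Ratios between genes within a sample do not depend on library scaling, and 4 were compared between the groups with a two-sided exact permutation test, for which 3 against 3 samples cannot give a p below 0.1. The count of Vegfa over that of Flt1 was 32.2, 36.8 and 41.3 in control against 18.4, 17.6 and 18.3 in cKO. On the log2 scale the mean ratio was 5.19 ± 0.18 in control and 4.18 ± 0.03 in cKO (SD, n = 3), a difference of -1.01. There were thus 2.02 times fewer Vegfa counts for each Flt1 count in cKO.

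The ratio of Angpt2 to Angpt1 was 0.407, 0.395 and 0.409 in control against 0.698, 0.801 and 0.777 in cKO. Its log2 mean went from -1.31 ± 0.03 to -0.40 ± 0.10 (SD, n = 3), a difference of 0.91 or 1.88-fold. It was the steadiest of the 4 ratios after that of the neuropilins among control samples, and no cKO sample came near the control range. The ratio of Nrp1 to Nrp2 went from 0.68 ± 0.02 to 0.25 ± 0.04 on the log2 scale (SD, n = 3), a difference of -0.44, and that of Flt1 to Kdr from 2.47 ± 0.12 to 2.82 ± 0.12, a difference of 0.35. For all 4 ratios the groups did not overlap and p = 0.1, the smallest the exact test can give, with an adjusted p of 0.1 over the 4.

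**Figure D3:**
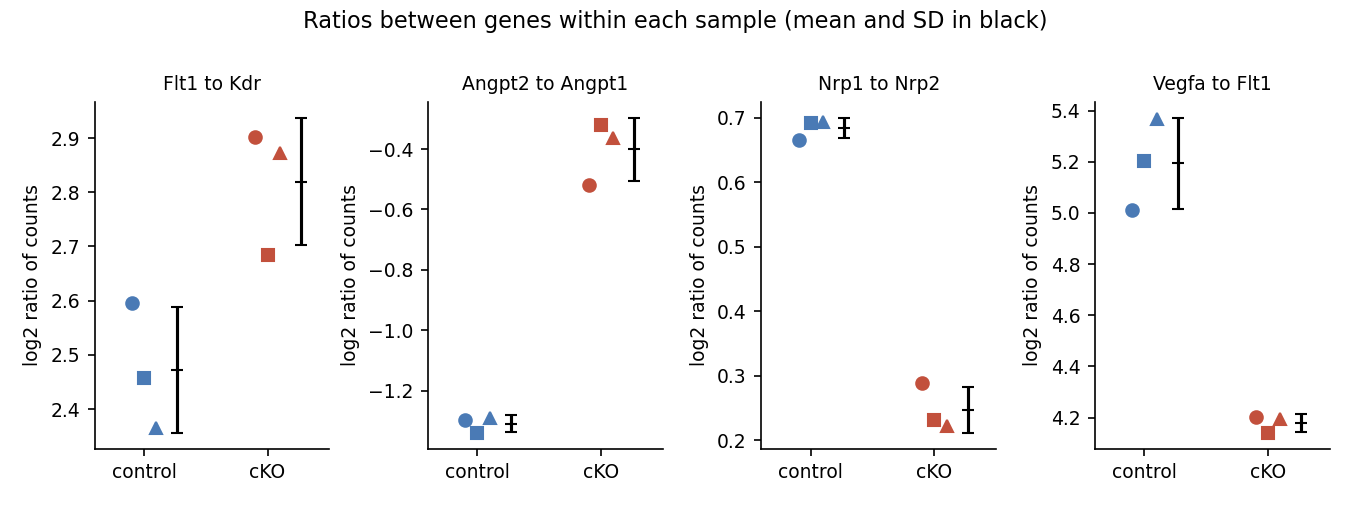
Within-sample log2 ratio of counts for 4 gene pairs, 1 panel each with its own y axis, showing the 3 control samples in blue and the 3 cKO samples in red with mean and SD in black. In each panel the groups are apart; Angpt2 to Angpt1 rose by 0.91 and Vegfa to Flt1 fell by 1.01 on the log2 scale.

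The spread between samples is given here as a description. The coefficient of variation (SD over mean of the CPM values) was larger in cKO than in control for 7 of the 10 genes, with a median of 2.55% in control and 6.99% in cKO. All genes tested had medians of 4.92% and 6.37%, and the 15869 of them with at least 77.8 counts on average, the mean count of the least counted member, 3.29% and 4.49%. In cKO the spread was above counting error for all members but Flt1 and Angpt1. It was largest for Flt4, at 17.2% where counting alone gives 8.91% per sample. Nrp2 was at 5.93% against 1.81%, Nrp1 at 4.78% against 1.67% and Vegfb at 12.8% against 5.22%. Angpt2 was at 9.20% against 4.40%, Vegfc at 8.05% against 4.32%, Kdr at 11.6% against 10.2% and Vegfa at 1.36% against 0.908%. In control Vegfa, Vegfc, Angpt1, Flt1 and Flt4 were above counting error. Nrp2, Nrp1 and Vegfb varied there by 0.225%, 1.28% and 0.868%, all below the 2.14%, 1.69% and 4.92% that counting gives. Kdr was also below it, at 2.45% against 12.9%, and Angpt2, at 2.65% against 5.07%. With 3 samples a group such low values are themselves uncertain, and the difference in spread between the groups was not tested. Flt1, Angpt1 and Vegfa were the other way round, at 10.6%, 4.41% and 2.13% in control and 3.19%, 2.32% and 1.36% in cKO. The cKO values of Flt1 and Angpt1 are below the 3.86% and 3.85% that counting gives.

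The receptor genes were highest in 1 cKO sample, as were most of the genes called higher. Within cKO, all 5 receptor and co-receptor genes and both angiopoietins were highest in replicate 2, as were 39.5% of all genes tested and 60.1% of the genes called higher. Relative to the control mean, Flt4 was 1.08, 1.499 and 1.09 higher on the log2 scale in cKO replicates 1, 2 and 3, Kdr 0.70, 0.99 and 0.71 and Nrp2 0.55, 0.71 and 0.60. For Flt1 the lead of replicate 2 was small, at 1.13, 1.19 and 1.10. Vegfb and Vegfc did not share this pattern, replicate 2 being the lowest of the cKO samples for Vegfc. Without that replicate, 7 of the 10 genes were still called higher and Nrp1, the smallest of the receptor changes, stood at 0.12 on the log2 scale (adjusted p = 0.028 from edgeR).

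Markers of cells other than satellite cells also differed between the groups. For scale, 9.38% of all genes tested were called higher and 6.46% lower, here and for the other marker lists. Endothelial markers summed to 41.3 to 43.5 CPM in control and 55.5 to 67.5 CPM in cKO, with 7 of 20 called higher, none lower and a median log2 fold change of 0.41. Their highest cKO sum was in replicate 2, and 16 of the 20 were highest there. Of the 3 most abundant by CPM, Eng, a TGF-beta co-receptor, stood at 0.55 on the log2 scale (adjusted p = 7.9e-06), Vwf, the clotting factor carrier, 0.30 (adjusted p = 0.061) and Cdh5, the endothelial cadherin, 0.47 (adjusted p = 0.035, all from edgeR). Without cKO replicate 2 the value for Cdh5 was 0.22 (adjusted p = 0.18 from edgeR) and 3 of the 20 markers were called. The call for Cdh5 was also lost without any 1 of the control samples (adjusted p = 0.065 to 0.12 from edgeR). The study had itself measured Cdh5 by RT-qPCR in satellite cells and reported staining for its protein, VE-cadherin, in those lacking Hira. It likewise measured Pax7, Myod1 and other genes of the marker lists, so these lists are not independent of the study's choice.

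Macrophage markers were higher in cKO throughout. They summed to 154 to 160 CPM in control and 322 to 378 CPM in cKO, and 15 of 15 were called higher, their median being 1.06 on the log2 scale. The most abundant by CPM were Lyz2 (1.18), a lysozyme, Ctss (1.19), a lysosomal protease, and Cd68 (0.90), a lysosomal glycoprotein. Fibroblast markers summed to 1110 to 1186 CPM in control and 1526 to 1704 CPM in cKO, with 6 of 10 called higher and 1 not tested, Col1a1 at 1.29, Col1a2 at 0.26 and Col3a1 at 0.21, all collagen genes. Mural markers, those of pericytes and smooth muscle, summed to 3252 to 3311 CPM in control and 3531 to 3670 CPM in cKO. Of these 10, 8 were tested, with 5 called higher and 2 lower. The 2 lower ones were not among the 3 most abundant, which are the ones named. Most of the mural sum was Acta2 (0.09), a smooth muscle actin that myoblasts also make. It stood at 2929 CPM of a mean sum of 3274 in control and at 3180 of 3594 in cKO. Cspg4 had a log2 fold change of 0.15 and Pdgfrb, the PDGF receptor of mural cells, 0.57, and the calls for Acta2 and Cspg4 were lost in 5 and 6 of the 11 alternatives, Cspg4 being at 0.08 without cKO replicate 2. The myogenic markers fell instead, with a median of -0.18, Des at -0.15, Chrna1 at -0.18 and Myog at -0.20. No marker of any list was at 0 in all samples, and Kcnj8, a mural marker, had at most 3 counts in each. The endothelial, macrophage and fibroblast sums rose as the receptor genes did, by differing amounts, and the myogenic sum fell. The mural sum, mostly Acta2, rose by 0.13 on the log2 scale. The part of these levels in the result was not tested.

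**Figure D4:**
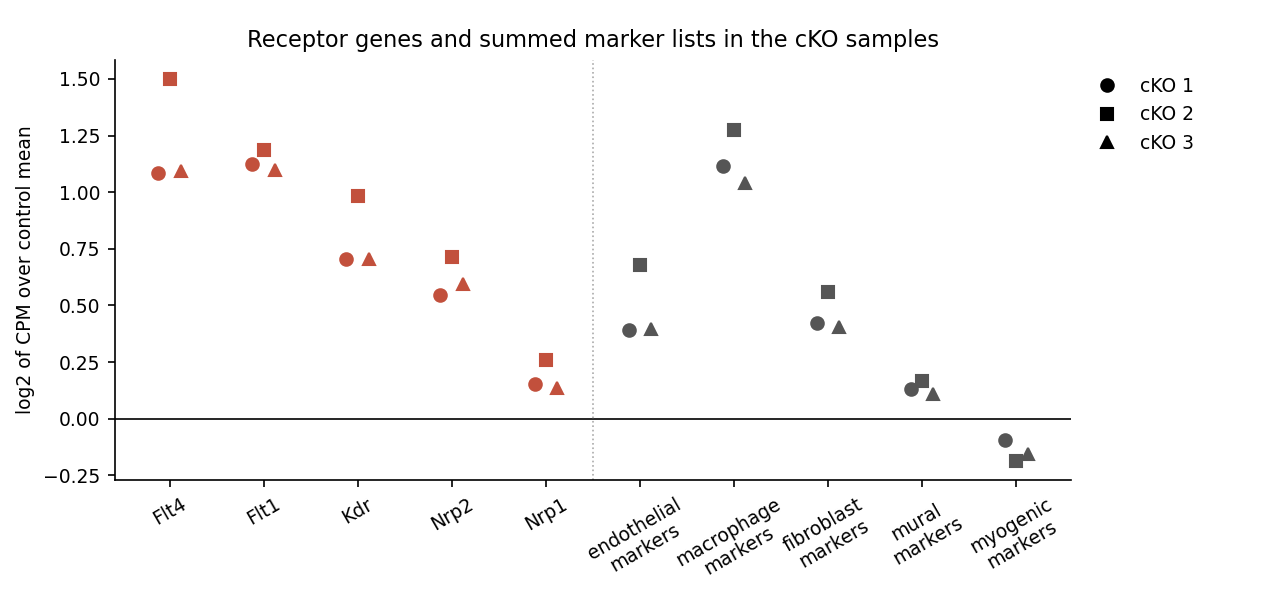
Log2 of the CPM in each cKO sample over the control mean, for the 5 receptor and co-receptor genes (red) and for the summed CPM of 5 marker lists (grey), with a marker shape for each cKO replicate. Replicate 2 (squares) is the highest cKO sample for each receptor gene and for the endothelial, macrophage, fibroblast and mural sums, and the lowest for the myogenic sum.

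Of 10 further ligands, receptors and modulators of the 2 systems, 3 were called higher and none lower, where 9.38% and 6.46% of all genes tested were, with a median log2 fold change of 0.15. The largest changes were in Ccbe1 (1.09, adjusted p = 3.4e-08 from edgeR), a secreted factor needed to process VEGFC, and Svep1 (0.66, adjusted p = 3.1e-07 from edgeR), an extracellular matrix protein of lymphatic development. Ccbe1 had 335, 326 and 346 counts in control against 567, 753 and 651 in cKO, with no overlap in CPM. Angpt4, a further angiopoietin, reached 0.32 (adjusted p = 0.037 from edgeR), a call lost in 5 of the 11 alternatives, among them each sample left out except control replicate 2 and cKO replicate 1.

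The angiopoietin receptors and the remaining VEGF ligands were not called. Tek, the angiopoietin receptor, had 31, 55 and 46 counts in control against 37, 51 and 40 in cKO, and Tie1, its partner, 21, 25 and 33 against 11, 27 and 29. Vegfd had 62, 49 and 78 counts against 74, 99 and 64, a difference of 0.45 on the log2 scale (adjusted p = 0.15 from edgeR), while Pgf, a ligand of FLT1, had 513, 634 and 537 against 418, 637 and 517 (0.03, adjusted p = 0.88 from edgeR). The groups overlapped for each of these 4 genes. Tek and Tie1 are also on the endothelial marker list, where Eng was called higher. At their low counts the lack of a call does not exclude a rise.

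The semaphorin partners of the neuropilins showed no common direction. Of 12 class 3 semaphorin and plexin genes, 2 were called higher, 2 lower and 8 not called, with a median log2 fold change of 0.01. Of all genes tested, 9.38% were called higher and 6.46% lower. Sema3d, a repellent guidance cue, fell by 0.39 (adjusted p = 8.3e-06) and Plxna2, a semaphorin receptor, fell by 0.27 (adjusted p = 0.00012), both on the log2 scale and from edgeR. Sema3c rose by 0.26 (adjusted p = 0.00015) and Sema3b by 0.16 (adjusted p = 0.043, both from edgeR), the latter not called in 6 of the 11 alternatives.

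Genes induced by VEGF in endothelial cells were in part too low to test. Of 8, Dll4, Aplnr, Nos3 and Kcne3 did not pass the filter, with at most 13 counts in any sample. Of the 4 tested, Unc5b, a netrin receptor, rose by 0.46 on the log2 scale (adjusted p = 9.4e-07 from edgeR) and Nid2, a basement membrane protein, 0.17 (adjusted p = 0.010 from edgeR). Esm1 and Apln were not called, so 2 of the 4 were called higher, against 9.38% of all genes tested. Unc5b had 7625 to 8819 counts in control and 8566 to 12020 in cKO, and its groups overlapped in counts but not in CPM. The call for Nid2 was lost in 3 of the 11 alternatives.

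Genes of the hypoxia response, of which Vegfa is a classic target, showed no common direction either. Of 16 genes, 2 were called higher and 3 lower, where 9.38% and 6.46% of all genes tested were, with a median log2 fold change of -0.07. Adm, a vasodilator peptide, had the largest change, 1.14 (adjusted p = 5.2e-09 from edgeR), with 924, 967 and 862 counts in control against 1550, 2178 and 1825 in cKO. Egln3, a prolyl hydroxylase acting on HIF, had 0.23 (adjusted p = 0.0029 from edgeR). The lower genes were Bnip3 at -0.26 (adjusted p = 0.033), Pdk1 at -0.23 (adjusted p = 0.012) and Pgk1 at -0.12 (adjusted p = 0.035, all from edgeR), which serve mitophagy, pyruvate use and glycolysis. The call was lost in 5 of the 11 alternatives for Bnip3, 6 for Pgk1 and 1 for Pdk1. Bnip3 was at -0.15 without cKO replicate 2 (adjusted p = 0.052 from edgeR), and without control replicate 3 none of the 16 was called lower.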

How the data were processed

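RNA was sequenced as stranded, ribosome-depleted total RNA with 75 bp single-end reads from 400 ng input. Per the submitters' processing notes and the study's methods, reads were aligned to mm10 with Bowtie2 2.3.4.2, an unspliced aligner, and featureCounts 1.6.3 gave the deposited raw counts per gene for each sample. Reads across splice junctions may thus be lost, and the handling of strand and of multimapping reads is not given in the sources used here. The authors' table of normalized values and their DESeq2 2.11.40.6 comparison table (mean, log2 fold change, standard error, statistic, p and adjusted p) were not used.

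The 6 samples were grouped by their labels. All 55536 gene identifiers matched GENCODE M21, which gave symbols, coordinates and merged exon lengths. Counts were tested with edgeR 4.0.16 in R 4.3.3 (filterByExpr, TMM, glmQLFit, glmQLFTest, genotype as the only term), with Benjamini-Hochberg adjustment over all 22404 genes tested. The procedure was tested on simulated data. CPM and RPKM values use total counts, and fitted fold changes also TMM factors, so that the 2 can differ slightly. The SE of a fold change was derived as its absolute value over the square root of the test's F statistic. The 95% intervals were built from that SE with t quantiles, so both are approximate. A member's counting error is 1 over the square root of its mean count. Counting error equals the common biological variation of 3.92% at about 651 counts per sample. Replicates differed beyond sampling noise, so none was counted as the same library sequenced again. The mean chi-square per gene was 2.03 between control replicates 2 and 3 and 5.20 to 9.39 for the other pairs. These values do not show whether the samples came from different mice. Ratios used a pseudocount of 0.5 counts. Promoter windows are those of RefSeq for GRCm38.p6.

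The members and gene lists were chosen with earlier results of these data known. Genes were named by rule: all 10 members, Hira, up to 6 called genes with the largest change in each pathway list, and the 3 most abundant of each marker list; others (Tek, Tie1, Vegfd, Pgf, Dll4, Aplnr, Nos3, Kcne3, Esm1, Apln, Kcnj8, Pax7 and Myod1) were named after their values were seen. Alternatives were DESeq2 1.42.0, RLE size factors, total counts only, no filter, a replicate block and each sample left out.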

Additional observations from a re-analysis of the deposited data

How the results depend on the processing

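The 11 alternatives to the fit were DESeq2, RLE size factors, total counts only, no filter on low counts, the replicate number as a block, and each of the 6 samples left out in turn. All 5 receptor and co-receptor genes, Angpt2 and Angpt1 kept their direction and their call in each of the 11. The number of members called higher was 6 to 7, owing to Vegfa. Fold changes of the members that were not called turned in sign when a cKO sample was left out: Vegfb to 0.0019 without replicate 2 and 0.021 without replicate 3, with a range of -0.14 to 0.021 over samples left out, and Vegfc to 0.012 without replicate 2, with a range of -0.10 to 0.012. With samples left out, the ratio differences were 0.29 to 0.42 for Flt1 to Kdr, 0.87 to 0.97 for Angpt2 to Angpt1, -0.46 to -0.42 for Nrp1 to Nrp2 and -1.11 to -0.93 for Vegfa to Flt1.

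Over all genes, 1571 to 2462 were called higher, and with samples left out 917 to 1673 were called lower, the 3 lowest counts being 917, 934 and 960 without control replicates 1, 2 and 3. Total counts only shifted the median log2 fold change of all genes by 0.02 and gave 2462 higher and 1057 lower. With each sample left out, 1 to 2 neuropilin partners were called higher (1 without control replicates 2 or 3 or cKO replicates 1 or 3), 1 to 2 genes of the endothelial response were higher (1 without control replicates 2 or 3 or cKO replicate 3), and 0 to 4 hypoxia genes were lower (1 without control replicate 1 or cKO replicate 3, 0 without control replicate 3). Endothelial markers called higher numbered 3 to 6 (4 without control replicates 2 or 3, 3 without cKO replicate 2), and mural markers 3 to 5 higher (3 without any 1 of the controls and 3 without cKO replicate 3) and 1 to 2 lower (1 without control replicate 3). With no filter 5 hypoxia genes were called lower. DESeq2 called 1 neuropilin partner and 4 endothelial markers higher, and the fit with the replicate block also called 1 and 4. The causes of these differences were not tested. The block and pairing rest on numbers alone: deviations of same-numbered samples correlated at -0.0129, -0.0045 and -0.0145, so the numbers were not taken to pair the samples, and with the block 1901 genes were called higher and 1251 lower. Depth limits Kdr and Flt4 most, at 50 to 163 counts per sample.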
